A study of Zea mays with 2 samples.

Results

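KN1 (KNOTTED1) peaks whose summit lay more than 500 bp past the 3′ end of their gene were taken from a ChIP-seq peak table of maize leaf protoplasts. There were 3316 such downstream summits among 20647 peaks on chromosomes 1 to 10 that were listed with exactly 1 nuclear gene, a share of 16.1% (exact 95% interval 15.6 to 16.6%), and among 21437 listed peaks in all. They were assigned to 2761 genes. The choice used only the position of the summit, the gene's end and its strand, and no measured enrichment.

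The ChIP library held chromatin recovered through tagged KN1, and it was set against input DNA from the same kind of protoplasts, with 1 library of each. Both came from B73 seedlings that had spent 3 days in a lit growth chamber and then 7 days in darkness, and both were prepared from leaf cells transfected with the KN1 plasmid p1107-KN1. KN1 carried the BLRP tag, a small peptide that a biotin ligase recognises and biotinylates, and was overexpressed in cells that had lost their walls. No library without tagged KN1 was analysed here, and no expression data were used, so the leaf identity of the cells was not checked against marker genes. With 1 library a group there is no replicate error for any value below, and the intervals and tests describe counting error among peaks, not variation between libraries.

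KN1 belongs to the KNOX family of homeodomain transcription factors. It is known for keeping shoot meristem cells undetermined, in part through the gibberellin and cytokinin pathways, and it is normally absent from leaf cells. In compact plant genomes a transcription factor is usually looked for in the promoter, but in maize, with its long intergenic stretches, regulatory DNA can also lie past the end of a gene or far from any gene. A summit past a gene's end may therefore belong to that gene, to the next gene along the chromosome or to neither, and the peak table does not distinguish these cases.

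Downstream summits were fewer than their mirror image on the other side of genes. There were 3316 summits more than 500 bp past a gene end and 4693 more than 500 bp before a gene start. The ratio was 0.707 (exact 95% interval 0.676 to 0.739). The interval treats peaks as independent, which neighbouring peaks are not. The positions counted here also define the classes, so the ratio only describes the class sizes. Downstream summits were the fewer on 10 of 10 chromosomes, and the ratio was lowest on chromosome 9 (0.640) and highest on chromosome 4 (0.772). They were divided evenly between the strands, 1693 at genes on the plus strand and 1623 at genes on the minus strand.

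The number of downstream summits declined gradually with distance. The bin from 250 to 500 bp past the gene end, just short of the limit, held 677 downstream summits, and the same bin before gene starts held 1510. From 500 to 750 bp there were 516 downstream and 752 upstream summits. The gap between both sides was thus widest close to the gene and narrower from 500 bp on. In the bin from 1750 to 2000 bp the counts were 212 downstream and 286 upstream, and from 4750 to 5000 bp they were 50 downstream and 67 upstream.

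**Figure D1:**
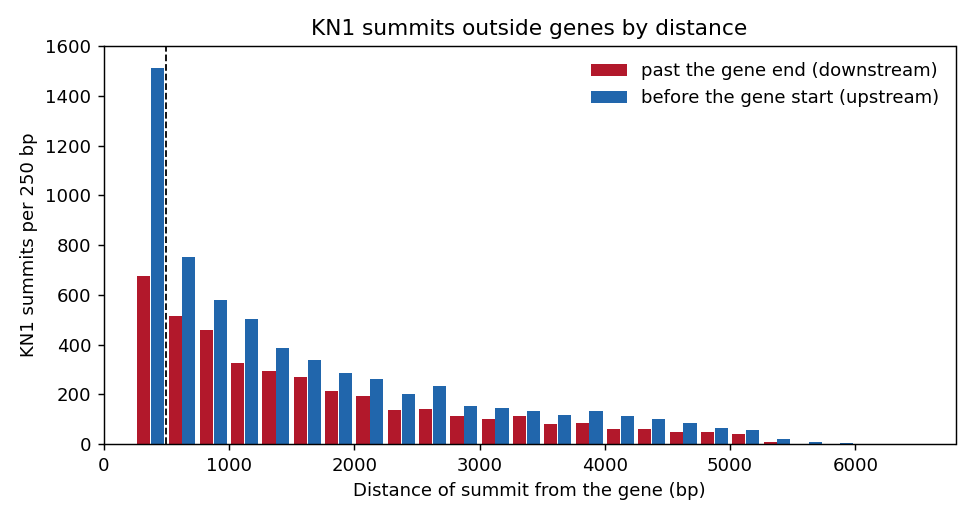
Number of KN1 summits per 250 bp (vertical axis) by distance in bp past the gene end (red) or before the gene start (blue), from 250 bp outwards; the dashed line marks 500 bp. Downstream summits decline from 516 in the first bin past the line to 50 just below 5000 bp, and the upstream bars decline from 752 to 67.

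The median downstream summit lay 1555 bp past its gene (quartiles 914 and 2661 bp), and the median upstream summit 1578 bp before it. Within 1000 bp of the gene lay 29.4% of the downstream and 28.4% of the upstream summits, and within 2000 bp 62.6% of the downstream and 60.7% of the upstream summits. Beyond 500 bp the distances thus had much the same spread on both sides. The table lists peaks by the distance of their edge, which reached 4996 bp among downstream peaks, so a summit farther out than 5000 bp is listed only if its peak reaches back within that distance. There were 55 of these.

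Fold enrichment, as deposited by the authors, sets ChIP reads at a summit against local input or the genome background, whichever is higher. At 93.1% of downstream summits the background was used, so the fold there only rescales the ChIP read count. Downstream summits had a median fold of 10.9 (quartiles 6.31 and 22.4), with values from 2.99 to 92.9. Upstream summits beyond 500 bp had a median of 11.2 (6.64 and 22.4), and summits 1 to 500 bp past a gene end (near-end summits below) 9.30 (5.96 and 17.2). Over all 20647 peaks the median was 9.47. At background input 1 read changes the fold by 0.351, so the medians of the downstream and upstream classes are about 1 read apart. The median number of overlapping ChIP reads at a downstream summit was 31, with quartiles of 17 and 64, so the weaker members rest on few reads.

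More of the downstream summits reached the median fold than of those just past the gene end, while the contrast with upstream summits did not pass. Of the downstream summits 1885 (56.8%, exact 95% interval 55.1 to 58.5%) reached the median fold, where 50.3% of all peaks did. Among summits 1 to 500 bp past the gene end 647 of 1299 did (49.8%), and the odds ratio of 1.33 (95% interval 1.16 to 1.51) passed Fisher's exact test (two-sided, p = 1.64e-05, 9.82e-05 adjusted over 6 contrasts). Among peaks of 400 to 600 bp alone the odds ratio was 1.15 and did not pass the exact test (p = 0.303). Against the upstream summits, with 2729 of 4693 (58.2%), the odds ratio was 0.948 with an interval of 0.866 to 1.04 (Fisher's exact test, p = 0.251, 0.301 adjusted). With 250 bp as the limit on both sides it was 0.922, with an interval of 0.850 to 1.0002 (Fisher's exact test, unadjusted p = 0.0489).

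A fold of at least 40 was reached by 339 downstream summits (10.2%, 95% interval 9.21 to 11.3%), against 6.77% of all peaks. The share was 9.44% (8.62 to 10.3%) of upstream summits and 5.70% (4.50 to 7.10%) of summits 1 to 500 bp past the gene end. At 80-fold the order of the classes turned, with 12 downstream (0.362%, 0.187 to 0.631%), 19 upstream (0.405%, 0.244 to 0.632%) and 6 near-end summits (0.462%, 0.170 to 1.00%), and the intervals overlap. These strong shares were not tested.

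**Figure D2:**
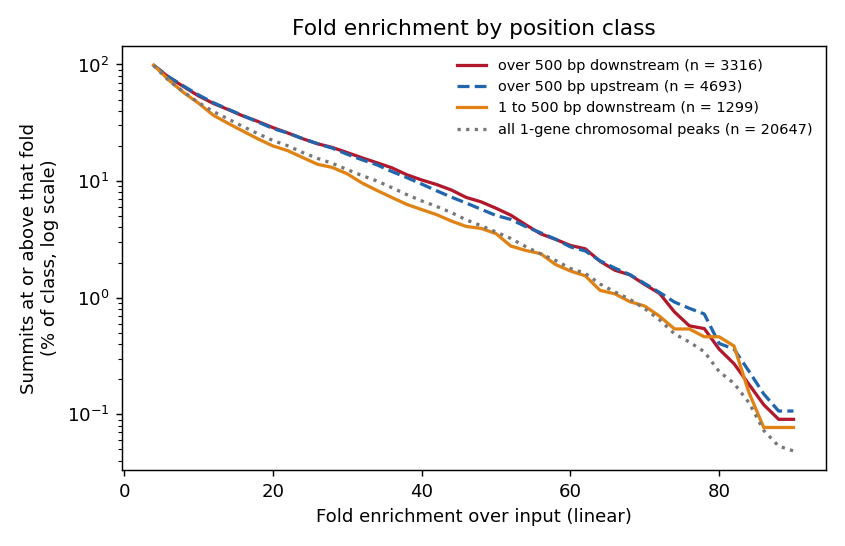
Percentage of summits (vertical axis, log scale) at or above each fold over input (horizontal axis, linear) for the downstream class, the upstream class, summits 1 to 500 bp past gene ends and all 1-gene chromosomal peaks. At 40-fold the downstream curve stands at 10.2%, the upstream curve at 9.44% and the near-end curve at 5.70%.

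Peak width showed a small difference between both sides. The median downstream peak was 480 bp wide (quartiles 340 and 721 bp), the median upstream peak 494 bp and the median near-end peak 440 bp. At least the median width of all peaks, 454 bp, was reached by 1800 downstream peaks (54.3%) and by 50.0% of all peaks. The share was 57.0% among upstream peaks, an odds ratio of 0.897 (95% interval 0.820 to 0.982; Fisher's exact test, p = 0.0186, 0.0373 adjusted). Among near-end peaks it was 48.2%, an odds ratio of 1.28 (1.12 to 1.45; Fisher's exact test, p = 0.000211, 0.000634 adjusted). Downstream peaks were thus slightly narrower than upstream ones and wider than near-end ones.

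Few downstream summits had an input level above the genome background. The input level, in overlapping input reads scaled to the ChIP depth, was worked out from each peak's fold and p-value. It exceeded the genome background of 1.85 at 230 downstream summits (6.94%), against 7.95% of all peaks. The share was 7.10% upstream (odds ratio 0.976, interval 0.816 to 1.17; Fisher's exact test, adjusted p = 0.790) and 5.70% near gene ends (odds ratio 1.23, 0.937 to 1.64; adjusted p = 0.195). Neither difference passed. At raised input the median fold was 9.63 among downstream summits, against 11.2 among those at the background. The medians were 10.8 and 11.2 upstream, and 9.30 and 9.11 near gene ends, where the order was the other way. The input level enters the fold as its divisor, so these medians do not show a separate relation.

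Within the downstream class, enrichment hardly varied with distance up to 5000 bp. The median fold was 11.6 from 500 to 1000 bp, 10.2 from 1000 to 1500 bp, 10.9 from 1500 to 2000 bp and again from 2000 to 3000 bp, 9.82 from 3000 to 4000 bp and 10.9 from 4000 to 5000 bp, where each range leaves out its lower bound. Across members, distance and fold had a Spearman rho of -0.01. The 55 summits beyond 5000 bp had a median fold of 21.1. Their widths ran from 234 to 2293 bp with a median of 585 bp, and 39 of the 55 (70.9%) reached the median width of all peaks. Across members width and fold had a Spearman rho of 0.81, and the part of width in the higher fold was not tested. The 78 downstream summits whose peak still reached back into its own gene had a median width of 1318 bp and a median fold of 33.4. Upstream summits beyond 5000 bp likewise had a raised median, 16.5.

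**Figure D3:**
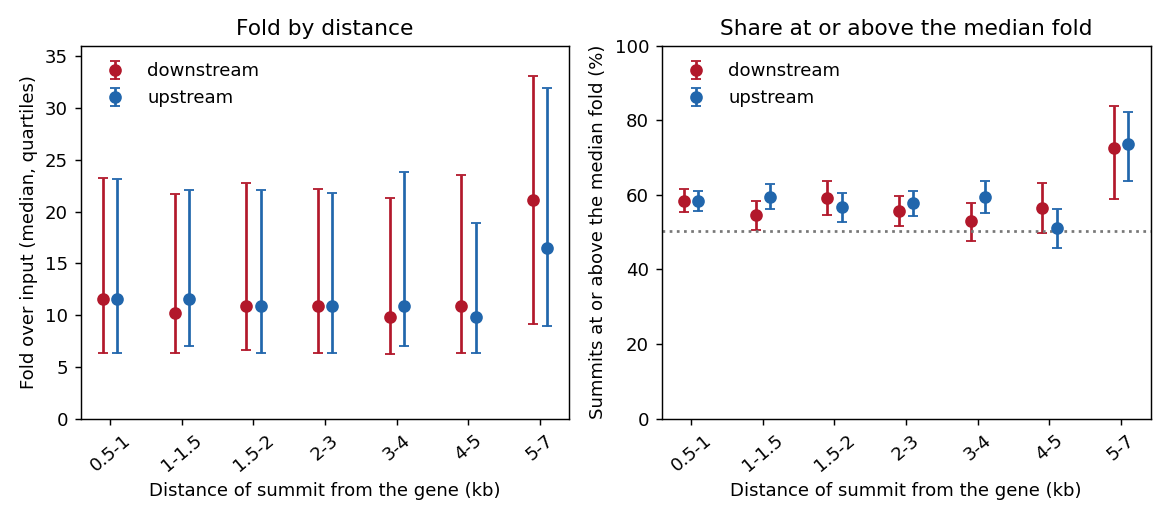
Left, fold over input (points, medians; bars, quartiles) by distance from the gene in kb for downstream (red) and upstream (blue) summits; right, percentage of summits at or above the median fold with exact 95% intervals, the dotted line marking the 50.3% of all peaks. Downstream medians stay between 9.82 and 11.6 up to 5 kb, and the last bin, with 55 summits, stands at 21.1.

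The strongest downstream summits are given with chromosome and 1-based start and end. Gene coordinates are as deposited, and the deposited peak starts were raised by 1. The gene identifiers are those of the AGPv4 annotation of B73. The 10 strongest summits come from 7 chromosomes. The highest fold, 92.9, was at Zm00001d033840 (chr1:275467069-275468844, minus strand). Its peak at chr1:275463480-275464821 had the summit 2639 bp past the gene end, with 264 overlapping ChIP reads, well away from the gene body. The next was at Zm00001d027145 (chr9:99794868-99795293, plus strand), a gene model of only 426 bp, where the peak at chr9:99795027-99796757 began inside the gene and had its summit 921 bp past the end with a fold of 92.5. The third was at Zm00001d027075 (chr9:31342974-31343566, plus strand), with a fold of 91.8 at 625 bp and a peak at chr9:31343067-31344519. Each of these 3 was the only 1-gene peak of its gene.

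The other summits of the first 10 had folds of 81.0 to 86.6. They were assigned to Zm00001d039827 on chromosome 3 (fold 86.6, 1207 bp past the gene end), Zm00001d019207 on chromosome 7 (85.9 at 1043 bp), Zm00001d052129 on chromosome 4 (84.0 at 1665 bp), Zm00001d051448 on chromosome 4 (83.1 at 1191 bp), Zm00001d005970 on chromosome 2 (82.4 at 750 bp), Zm00001d039989 on chromosome 3 (82.4 at 5211 bp) and Zm00001d017059 on chromosome 5 (81.0 at 2612 bp). Input was not above the background at 9 of the 10, with a slightly raised 2.01 at Zm00001d052129. It was not above the background at 93.1% of all downstream summits. In 6 of the 10 the gene model was shorter than 1000 bp. Among all downstream summits, 9.62% lay at gene models of at most 500 bp and 16.2% at models of 500 to 1000 bp. Among all peaks these shares were 6.40% and 10.9%. The gene lengths of the 10 were not tested against the class. The 10 strongest thus spread over distances from 625 to 5211 bp and were not gathered at the near edge of the class.

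The genes beside downstream summits were shorter than listed genes in general. Their median length was 2076 bp, against 2947 bp over the 13415 genes of all 1-gene peaks, but genes with an upstream summit beyond 500 bp had a similar median, 2206 bp. Gene models of at most 500 bp made up 9.74% of genes with a downstream summit (95% interval 8.66 to 10.9%), 9.87% of genes with an upstream one and 7.09% of all. At the other end, genes over 10000 bp made up 6.66% (5.76 to 7.66%) of genes with a downstream summit, 4.64% (3.996 to 5.36%) of genes with an upstream one and 8.06% (7.60 to 8.53%) of all. Among downstream summits the median fold varied little with gene length, with values of 11.6 at genes of at most 500 bp and 10.3 at genes over 10000 bp.

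Some downstream summits lay between their gene and the start of another. The peak table itself lists 13947 genes, which have at least 1 peak, and only these could be searched, so the following shares are lower limits. Another listed gene lay within 5000 bp on the far side of 560 downstream summits (16.9%, 95% interval 15.6 to 18.2%), and of 591 upstream summits (12.6%, 11.7 to 13.6%). In 306 cases (9.23%, 8.26 to 10.3%) the summit faced the start of the other gene, so that it lay downstream of its own gene and upstream of the next. In 254 cases (7.66%, 6.78 to 8.62%) it faced the end of the other gene and lay downstream of both. The remaining 2756 (83.1%) had no listed gene within that reach.

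Downstream summits that faced the start of another gene had a median fold of 13.3 (quartiles 7.01 and 27.3), those that faced an end 11.7 (6.31 and 23.4) and those with no listed gene in reach 10.9 (6.31 and 21.7). At least the median fold was reached by 64.1% (95% interval 58.4 to 69.4%), 56.7% (50.4 to 62.9%) and 56.1% (54.2 to 57.9%) of them in that order. Among upstream summits beyond 500 bp the medians were 12.3 facing a start, 13.7 facing an end and 10.9 with no listed gene in reach. Their shares were 63.2%, 65.5% and 57.2%, so on that side the values were highest at ends. These shares were not tested against each other, and being listed requires the other gene to have a peak of its own. Downstream summits that faced a start lay a median of 1393 bp from their own gene and 2852 bp from the other. Genes were assigned by the nearest peak edge, and in 13 of the 306 the other gene's start was nearer to the summit than the own gene's end.

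The clearest cases faced the start of a second gene within 2000 bp. The strongest peak was between Zm00001d013794 and Zm00001d013795 on chromosome 5 (chr5:20367370-20368668), with a fold of 72.9, its summit 909 bp past the end of the first gene and 1507 bp before the start of the second. The peak between Zm00001d013451 and Zm00001d013452 (chr5:11957735-11958891) had a fold of 70.5, with 610 and 903 bp to the 2 genes. Folds of 65.8, 62.7 and 58.9 were found between Zm00001d038608 and Zm00001d038609 on chromosome 6, between Zm00001d027333 and Zm00001d027334 on chromosome 1 and between Zm00001d046889 and Zm00001d046888 on chromosome 9. In the last 3 the summit lay 565, 659 and 1192 bp past the first gene and 1123, 1122 and 1743 bp before the second. In all 5 the assigned gene was the nearer of the pair by the summit.

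For many genes downstream summits were all that was listed among peaks with 1 gene. No other 1-gene peak was assigned to 1351 of the 2761 genes (48.9%, 95% interval 47.1 to 50.8%), and 1151 (41.7%) had a single such peak. Among the 3790 genes with an upstream summit beyond 500 bp, 47.7% (46.1 to 49.3%) had no other kind. The 1580 downstream summits of genes without other peaks had a median fold of 9.82 and a median width of 449 bp. The 1736 downstream summits of genes with other peaks had 12.3 and 512 bp. Summits upstream showed medians of 10.2 at genes without other peaks and 12.3 at genes with them.

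A summit close to the gene start accompanied the downstream summit at 825 genes (29.9%, 95% interval 28.2 to 31.6%), counting summits up to 500 bp on either side of the start. Among genes with an upstream summit beyond 500 bp the share was 33.8% (32.3 to 35.3%). The gene sets overlap, so the difference was not tested. Among the 10654 listed genes without a downstream summit it was 62.9% (61.99 to 63.8%), but these are listed only because they have a peak elsewhere, so the shares are not on equal terms. At the 825 genes the strongest downstream summit had the higher fold in 496 (60.1%, 56.7 to 63.5%), the start summit in 320, and 9 were equal. The medians of the strongest folds were 13.7 downstream and 10.2 at the start. For upstream summits the comparison gave 768 of 1280 genes, with medians of 13.7 upstream and 9.82 at the start. Of the 2761 genes, 551 (19.96%) also had a summit more than 500 bp upstream, 605 (21.9%) one inside the gene and 257 (9.31%) one within 500 bp past its end.

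The 5 genes named next had the highest downstream folds among genes with a start summit. That choice favours a higher fold downstream, and no gene was chosen for a higher fold at the start. At Zm00001d019207 (chr7:21927733-21929407, plus strand) the downstream summit had a fold of 85.9 and the start summit, 107 bp upstream, 53.3. At Zm00001d051448 (chr4:159031088-159035197, plus strand) the folds were 83.1 downstream and 48.0 at the start summit 77 bp upstream. At these 2 genes folds were high on both sides. At Zm00001d039989 (chr3:21877778-21879721, minus strand) the downstream fold was 82.4 at 5211 bp, while the start summit 74 bp upstream had 3.98. At Zm00001d029601 on chromosome 1 the folds were 80.3 downstream and 33.0 at the start, and at Zm00001d017985 on chromosome 5 they were 79.9 downstream and 8.76 at the start.

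Several downstream summits at 1 gene were less common. A single downstream summit was found at 2290 genes (82.9%), 2 at 395 genes, 3 at 69, 4 at 6 and 5 at 1. At the 471 genes with at least 2 the closest pair of summits was a median of 1057 bp apart (quartiles 764 and 1610 bp). The summit nearest to the gene had the higher fold in 234 of these genes, the farthest in 229, and 8 were equal. The highest fold was a median of 2.27 times the lowest. The higher fold was thus about as often near to the gene as far from it.

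The gene with 5 downstream summits was Zm00001d003228 (chr2:36827859-36829876, minus strand). Its folds were 11.6 at 970 bp, 37.9 at 2069 bp, 5.26 at 2670 bp, 5.61 at 3492 bp and 6.31 at 4081 bp past the gene end, and a start summit 93 bp upstream had 23.1. The strongest summit was thus flanked by summits of lower fold. At Zm00001d027680 (chr1:11011198-11015865, minus strand) the strongest summit came first, with 72.9 at 1236 bp followed by 8.41, 5.96 and 4.91 at 2729, 3689 and 4966 bp. Zm00001d028995 (chr1:54034211-54036320, minus strand) had the reverse order, with 6.66, 8.06, 28.7 and 34.4 at 1882, 2698, 3565 and 4573 bp.

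The other genes with 4 downstream summits that were taken by summed fold were Zm00001d002576 (chr2:15881659-15882300, plus strand) and Zm00001d051172 (chr4:147112461-147115250, plus strand). The folds at Zm00001d002576 were 11.6, 4.21, 5.61 and 34.4 at 835, 1511, 2457 and 3270 bp, and the gene had 8 peaks of its own in all. At Zm00001d051172 they were 36.8, 11.9, 10.9 and 11.6 at 1954, 2683, 3455 and 5123 bp.

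**Figure D4:**
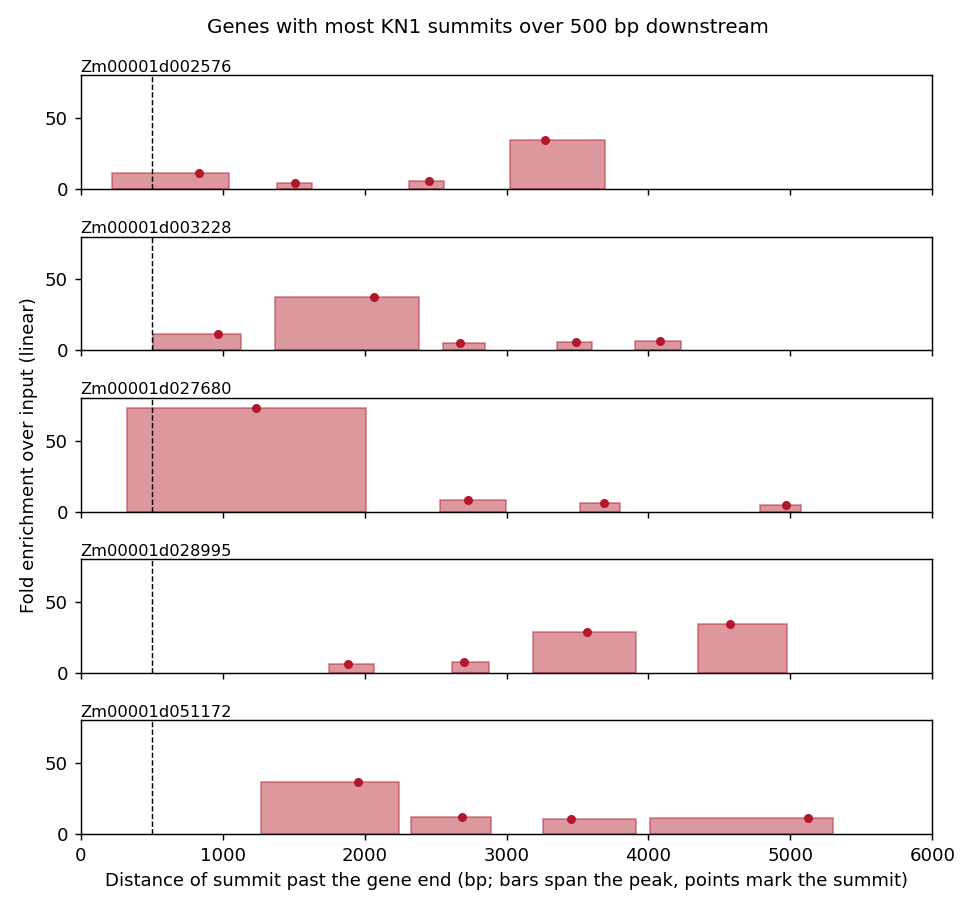
Fold over input (vertical axis, linear) of the downstream summits of the 5 genes with most of them, by distance in bp past the gene end; bars span each peak, points mark summits and the dashed line marks 500 bp. The strongest summit is the nearest in Zm00001d027680 (72.9) and Zm00001d051172 (36.8). It is the farthest in Zm00001d002576 and Zm00001d028995 (34.4 in both).

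Distances between neighbouring summits were wide-ranging. Another listed summit lay within 1000 bp of 639 downstream summits (19.3%), and of 24.7% of upstream ones and 18.9% of all peaks. At 1147 (34.6%) no other listed summit lay within 5000 bp. The median fold was 10.5 at the 639 and 9.11 at the 1147, so summits with close company and those without any were both slightly below the class median of 10.9. Peak numbers run along each chromosome and some are absent from the table. The number next to a downstream peak on the side away from its gene was absent at 548 (16.5%, 95% interval 15.3 to 17.8%), and on the side towards the gene at 279 (8.41%, 7.49 to 9.41%). Away from the gene the share was 13.5% (11.4 to 15.8%) from 500 to 1000 bp and 26.5% (23.2 to 30.1%) beyond 3000 bp. Upstream summits beyond 500 bp showed a similar pattern, with 18.5% absent away from the gene and 6.14% towards it. Their share away from the gene was 15.2% from 500 to 1000 bp and 28.9% beyond 3000 bp. The positions of the absent numbers are not analysed here.

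The 5 farthest downstream summits of at least 10-fold all lay in peaks of over 1000 bp. A summit beyond 5000 bp is listed only if its peak reaches back within that distance, so some width is given by the listing. The summit at Zm00001d023671 (chr10:14657916-14658990, minus strand) lay 6629 bp past the gene with a fold of 53.6, in a peak of 2293 bp. At Zm00001d028576 (chr1:39587411-39593209, plus strand) the distance was 6354 bp and the fold 56.1. The next 3 were 5967, 5874 and 5475 bp from Zm00001d038470, Zm00001d033766 and Zm00001d005737, with folds of 16.5, 25.9 and 50.1. The widest downstream peaks measured 3343 bp at Zm00001d012585 on chromosome 8 (fold 23.3), 3183 bp at Zm00001d042665 on chromosome 3 (55.7) and 3050 bp at Zm00001d043837 on chromosome 3 (72.2).

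The highest input level at a downstream summit was 4.72, at Zm00001d033859 (chr1:276073335-276081242, minus strand). The peak at chr1:276072238-276072559 lay 979 bp past the gene, with 26 overlapping ChIP reads and a fold of 4.72. The next were Zm00001d000528 on chromosome 3 (input 4.02, fold 3.39) and Zm00001d006710 on chromosome 2 (input 4.02, fold 7.57). On both sides of the 500 bp limit folds were mixed. The summits just inside it, all at 501 bp, had folds of 31.2 (Zm00001d039669), 4.91 (Zm00001d018822) and 4.91 (Zm00001d022427). Those just outside, at 500 bp, had 18.9 (Zm00001d028574), 11.6 (Zm00001d044338) and 7.36 (Zm00001d051804).

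Along the chromosomes downstream summits were dense towards the ends. Each chromosome was cut into 10 segments of the same length. Downstream summits numbered 2.98 per Mb in the outermost segments and 0.512 per Mb in segments 4 to 6, so the outermost held 5.82 times as many per Mb. The ratio ran from 3.15 on chromosome 6 to 12.1 on chromosome 2. As a share of the 1-gene peaks in the same segments the class changed less, 15.9% (95% interval 15.1 to 16.8%) at the ends and 14.4% (12.96 to 15.9%) in the middle. Their median distance was 1553 bp at the ends and 1559 bp in the middle, and the median fold 11.2 at the ends and 10.2 in the middle. Between chromosomes the share ran from 15.1% (13.4 to 16.9%) on chromosome 6 to 17.4% (15.9 to 19.0%) on chromosome 2, with overlapping intervals.

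**Figure D5:**
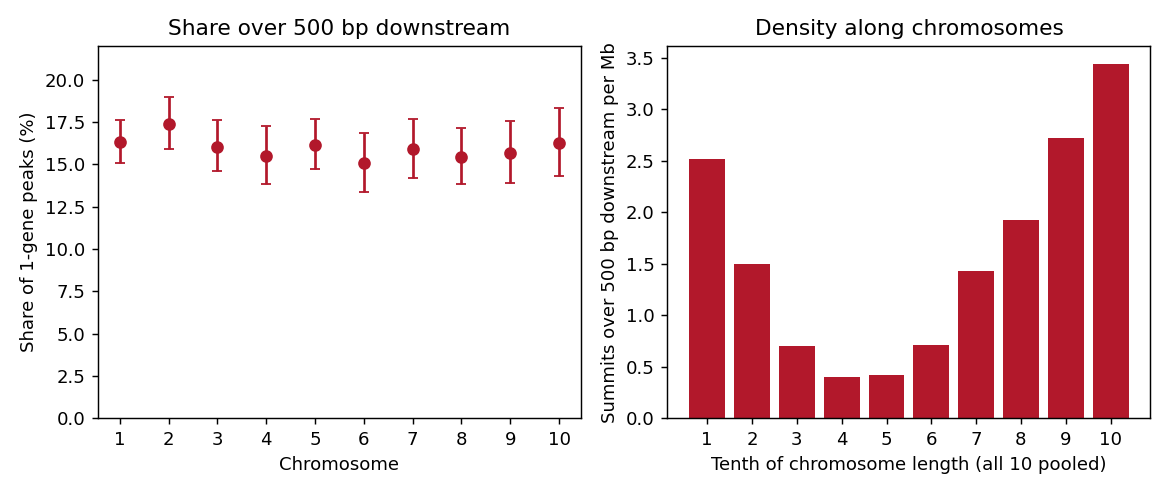
Left, downstream summits as a percentage of the 1-gene peaks of each chromosome, with exact 95% intervals; right, downstream summits per Mb in each of 10 equal segments of chromosome length, pooled over 10 chromosomes. The shares lie between 15.1% and 17.4%, and the density falls to 0.399 per Mb in the fourth segment, with 2.51 in the first and 3.44 in the last.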

How the data were processed

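The authors deposited 1 peak table without a header. MACS2, SAMtools 1.11, Bowtie2 2.4.2 and fastp 0.21.0 are the tools in the submitters' processing notes. The genome build is not given in the sources used here. The deposited columns are the fold, the score, and the −log10 p-value and −log10 q-value. All were made by the authors for 1 ChIP library against 1 input library without pooling. The fold is a linear ratio of ChIP over input, or over the input floor where input was not above it. The score was not used. The peak names hold an effective genome size of 700 Mb, which sets the input floor and with it most folds.

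Pileup and input were solved from fold and p under the MACS2 formulas, with a relative error of at most 8.10e-06. The depths are unknown; with the shortest peak, 229 bp, as fragment length they are estimated at 5.66 M ChIP and 11.3 M input reads. The word rmdup in the peak names may mark removal of duplicate reads, which would cap the pileup of the strongest peaks. Gene coordinates count from 1, as 114 of 118 mitochondrial genes match the RefSeq table. Of the nuclear gene identifiers 0 matched that table, so symbols and sequences were not used here, and gene lists planned by symbol were not run.

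Python 3.11.15, scipy 1.17.1 and pandas 2.3.3 were used. Shares have exact Clopper-Pearson 95% intervals, and 6 contrasts by Fisher's exact test were adjusted by Benjamini-Hochberg. Solving and placement were tested on simulated data. Members and comparisons were chosen with earlier results of these data known. Named members are the 10 of highest fold, the 5 farthest of at least 10-fold, the 5 genes with most members, the 3 widest, the 3 of highest input, 3 on each side of the limit, and the 5 strongest each facing another gene's start within 2000 bp or with a start summit.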

Additional observations from a re-analysis of the deposited data

Results flagged for a closer look

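Some listed peaks with a summit more than 500 bp past a gene end fell outside the class because of how their genes are listed. All listed peaks were called over input, so a fold above 1 is given by the listing. There were 5 peaks listed with several genes, each of which placed the summit in this way, with a median fold of 17.6 (4.91 to 82.7). Another 17 such peaks were listed with RNA genes under other identifiers, with a median fold of 10.9 (4.56 to 44.9). Both sets entered no comparison above.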

How the results depend on the processing

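The ratio of downstream to upstream summits kept its direction under the 7 alternatives run, with values from 0.644 (250 bp limit) to 0.711 (peak edges). Of the 7, leaving out summits with another listed gene within 5000 bp (0.672) was added after seeing the data. The number of downstream summits ranged from 2340 (1000 bp limit) to 3993 (250 bp limit) and was 2714 with peak edges. The contrast of fold with upstream summits, an odds ratio of 0.948, passed only with the 250 bp limit (0.922, Fisher's exact test, unadjusted p = 0.0489), and from 500 to 1000 bp, a range added after seeing the data, it was 1.004 (p = 0.966); the cause was not tested. The contrast with near-end summits, 1.33, became 1.15 among peaks of 400 to 600 bp (Fisher's exact test, p = 0.303), a subset with fewer peaks, and held under the other 3 alternatives (1.29 to 1.35). Of these, the limit on q left the counts at or above the median fold unchanged, 1885 and 647. It removed only peaks below the median fold, so it is not a separate check. Against upstream summits the limit on q likewise left the counts unchanged, 1885 and 2729. The value of 1.29 left out downstream summits with another listed gene within 5000 bp but kept all 1299 near-end summits. That setting was added after seeing the data. By construction the share facing another gene's start, 9.23%, was 2.29% within 2000 bp, and the share of genes with a start summit, 29.9%, was 36.7% within 1000 bp and 21.1% within 250 bp. The 4 width and input contrasts were recomputed only at q of at most 1e-10, a setting added after seeing the data. By unadjusted p-values they kept their side of the test threshold. Width against upstream peaks had an odds ratio of 0.889 there (Fisher's exact test, unadjusted p = 0.0430). These p-values were not adjusted, so whether that contrast would pass after adjustment was not determined. No paired analysis was possible because each group has 1 library.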
